A study of Mus musculus with 2 samples.

Results

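The chemokine system was described in 2 samples of TR1 cells (CD4 T cells that make IL-10 and restrain immune responses) from the small intestine of mice given anti-CD3 antibody. A gene was a member if its probe set carried exactly 1 gene symbol and that symbol was a numbered member of the Ccl, Cxcl, Cx3cl, Xcl, Ccr, Cxcr, Cx3cr or Xcr family. Where a gene had several probe sets, the one brightest on average over both samples was taken. This gave 52 genes of 19937 in all, 34 ligands and 18 receptors, from 56 probe sets. Ccl21 and Ccl27, whose 3 probe sets carry several symbols each, were not analysed here.

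The impaired sample came from mice with the CD4-DNIL-10R transgene, a dominant-negative IL-10 receptor driven by regulatory sequence of the Cd4 gene and thus made in T cells rather than in the whole intestine. The wildtype sample came from mice whose IL-10 receptor alpha chain was unaltered. Mice of both groups received anti-CD3 (clone 2C11), 15 μg into the peritoneum, 2 times on alternate days. They were killed either 4 or 48 hours after the last injection, and the labels do not say which time applies to which sample. The sources used here give neither the mice's age, nor how many were pooled, nor how cells were sorted. Il10ra, which encodes the receptor chain at issue, was at 12.30 in impaired and 9.92 in wildtype cells, and whether its probe set also detects the transgene is not known. Each sample is 1 array. No replicate error was therefore available, no difference below was tested, and every count describes these 2 arrays.

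Chemokines are small secreted proteins that direct cell movement. They bind receptors with several membrane-spanning segments that signal through inhibitory G proteins, and T cells carry different sets of these receptors according to where they home. In the small intestine, CCL25 made by the epithelium draws T cells that carry CCR9, CCL20 draws cells with CCR6, and the ligands of CXCR2 recruit neutrophils.

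Values are log2 expression after RMA (an array normalization that also subtracts background), and differences are impaired minus wildtype, so 1 is a 2-fold difference. The median of all probe sets, 6.91, is used only to say which members gave a dim signal. RMA compresses the differences of dim probe sets. By their mean, 19 ligands and 11 receptors lay at or above this median.

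Chemokine genes were more often brighter than dimmer in the impaired sample. Above 0 were 26 of 34 ligands and 13 of 18 receptors, whereas 51.5% of all genes lay above 0. The 26 include Ccl19, whose probe sets disagree. The median difference was 0.25 for the ligands and 0.22 for the receptors, beside 0.01 for all genes. At least 2-fold brighter were 2 ligands, Cxcl2 and Ccl25 (the second by 1 of its 2 probe sets), and 1 receptor, Cxcr2, where the share of all genes was 0.828%. The impaired sample had 0 ligands and 0 receptors that were 2-fold dimmer, and 0.191% of all genes were. By a 1.5-fold rule 7 ligands and 2 receptors were brighter (3.58% of all genes) and 0 members were dimmer (1.8% of all genes). The lowest member was Cxcl15, a ligand first described in lung, at 4.995 in impaired and 5.42 in wildtype cells, both below the median of probe sets.

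Genes of neutrophils and of epithelial cells were brighter in the same sample, as the plot of cell type markers shows. Of 12 neutrophil markers 11 were above 0 (median 1.41), and their summed linear expression was 7077 in impaired and 2325 in wildtype cells. All 14 enterocyte markers were above 0 (median 0.90), with sums of 35269 in impaired and 19741 in wildtype cells. The 11 goblet and Paneth cell markers measured were also above 0 (median 0.86), with sums of 47844 in impaired and 28282 in wildtype cells. Of 11 macrophage and monocyte markers 9 were above 0 and 2 below, with a median of 0.18. Lyz2 (1.78) and Tyrobp (1.03) were the 2 at least 2-fold brighter. The sums of the 11 were 5041 in impaired and 5078 in wildtype cells, and 5 of them were dim. The 5 CD8 and gamma-delta T cell markers measured were split, 2 above 0 and 3 below, with a median of -0.09. Their sums were 10729 in impaired and 14513 in wildtype cells. Cd8a was the lowest of them at -0.70 and Zbtb16 the highest at 0.54. The 8 TR1 markers, among them Il10 and Lag3, differed by between -0.20 and 0.10, and the 8 T cell markers measured by between -0.19 and 0.24. Sums of the TR1 markers were 36494 in impaired and 38103 in wildtype cells. Those of the T cell markers were 52087 in impaired and 52685 in wildtype cells. The lists hold different genes, so their sums do not give the shares of the cell types. No TR1, T cell, enterocyte, goblet or Paneth cell marker lay below the median of probe sets by its mean, whereas Csf3r, Camp and Elane did among the neutrophil markers. RMA gives no marker a value of 0. The part of these other cells in the chemokine differences was not tested. In such bulk samples, more cells of a type and more RNA per cell cannot be told apart.

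**Figure D1:**
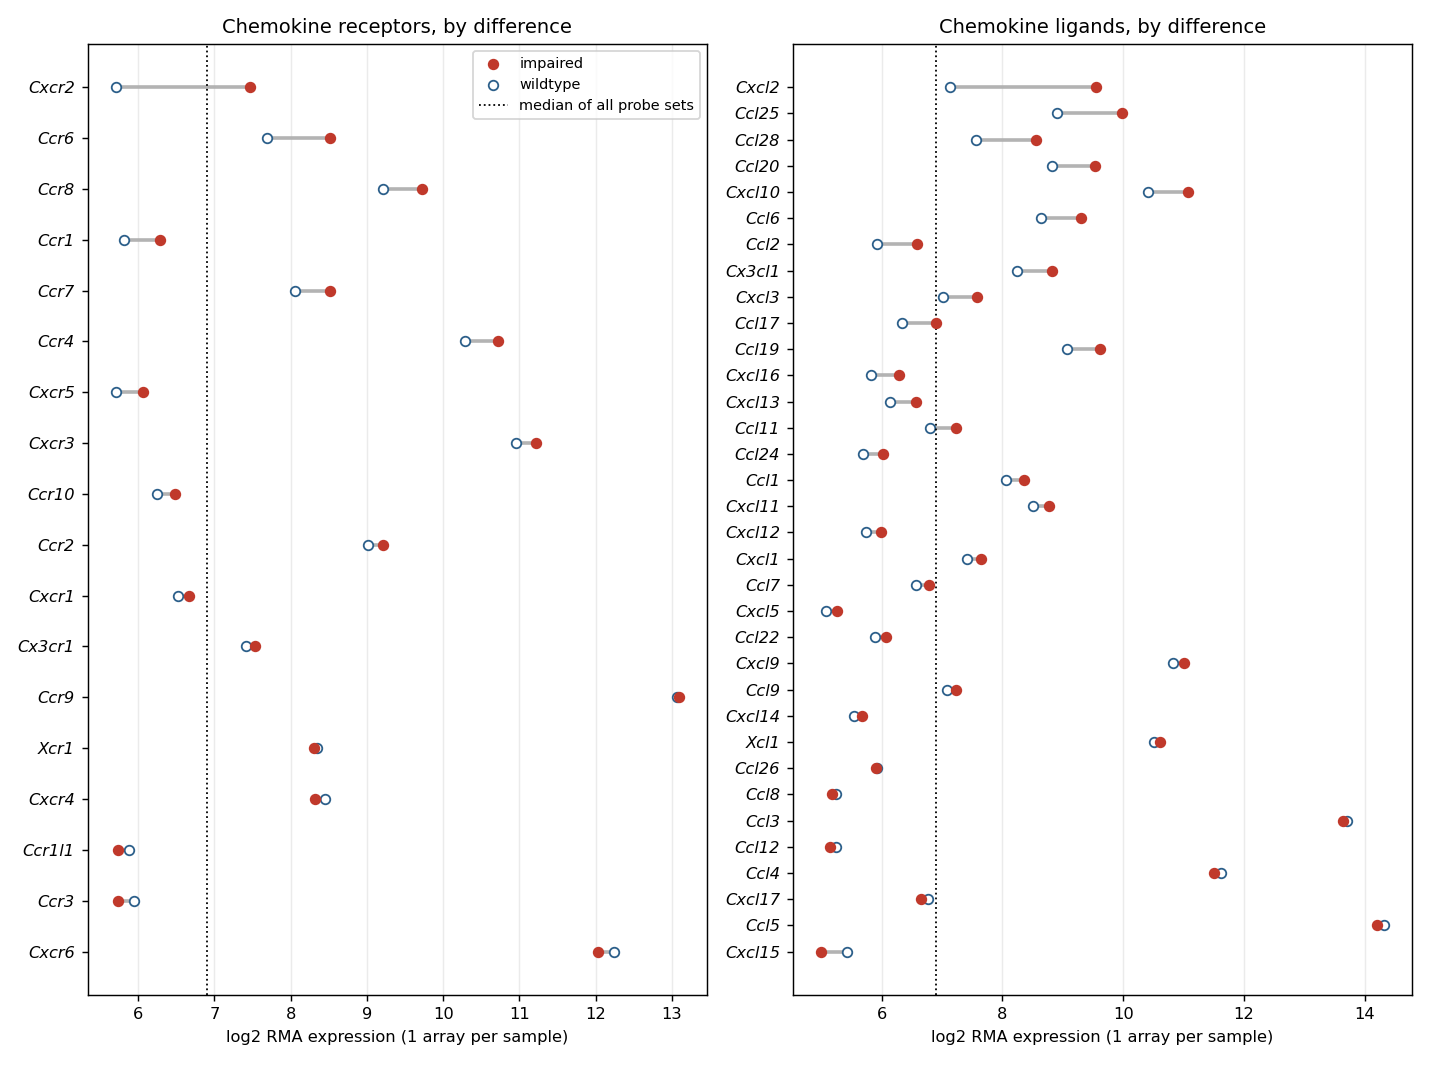
Log2 RMA expression of each chemokine receptor (left panel) and ligand (right panel) in the impaired sample (filled) and the wildtype sample (open), 1 array each, sorted by their difference. Cxcr2 and Cxcl2 have the widest gaps, at 1.76 and 2.40, while Ccr9, Ccl3, Ccl4 and Ccl5 are nearly the same in both samples.

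The members are given by role, in groups drawn up after the values had been seen, so that a group's count describes these genes and supports nothing. Among the ligands, the neutrophil attractants held the widest difference. These are the CXC chemokines with a Glu-Leu-Arg motif, most of which bind CXCR2. Cxcl2, also known as MIP-2, stood at 9.54 in impaired and 7.14 in wildtype cells, a difference of 2.40 or 5.29-fold. It ranked 2 among the 19937 genes. Of 2514 genes whose mean lay within 0.5 of its own, 1 was as far apart. The other genes of the group lay closer together. Cxcl3 was at 7.58 in impaired and 7.01 in wildtype cells (1.48-fold brighter). Cxcl1, known as KC, was at 7.64 in impaired and 7.41 in wildtype cells (1.17-fold brighter). Cxcl5 was dim, at 5.27 in impaired and 5.08 in wildtype cells. Cxcl15, dim as well, went the other way at -0.43. The 5 genes of this group had a median difference of 0.23, so the size seen for Cxcl2 was not shared by the others. Pf4 and Ppbp, CXC chemokines whose names fall outside the family pattern, were dim and differed by 0.06 and -0.22.

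Cxcl1, Cxcl2 and Cxcl3 lie in the same run of neighbouring genes, and their promoters are shown because they carry the same NF-kB-like letters while their differences were unequal. Each is the 250 bases before the gene's start in RefSeq's GRCm38.p6. The Cxcl10 promoter is added as that of an interferon-induced ligand with such a match of its own. Capitals mark matches to GGAANTTCC, a core of the site bound by NF-kB that reads the same on both strands.
Cxcl2 (chr5:90903649-90903898, plus strand, difference 2.40): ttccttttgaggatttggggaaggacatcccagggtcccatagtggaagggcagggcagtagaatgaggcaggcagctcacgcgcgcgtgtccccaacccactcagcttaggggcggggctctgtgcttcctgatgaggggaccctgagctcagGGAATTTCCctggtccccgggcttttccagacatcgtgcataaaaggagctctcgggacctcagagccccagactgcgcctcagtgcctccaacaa
Cxcl3 (chr5:90785851-90786100, plus strand, difference 0.565): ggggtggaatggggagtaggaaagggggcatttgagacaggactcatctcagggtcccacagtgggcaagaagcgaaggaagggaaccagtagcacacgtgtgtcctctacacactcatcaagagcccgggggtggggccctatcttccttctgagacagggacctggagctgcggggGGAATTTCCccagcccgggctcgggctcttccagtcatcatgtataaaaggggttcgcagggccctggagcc
Cxcl1 (chr5:90890995-90891244, plus strand, difference 0.23): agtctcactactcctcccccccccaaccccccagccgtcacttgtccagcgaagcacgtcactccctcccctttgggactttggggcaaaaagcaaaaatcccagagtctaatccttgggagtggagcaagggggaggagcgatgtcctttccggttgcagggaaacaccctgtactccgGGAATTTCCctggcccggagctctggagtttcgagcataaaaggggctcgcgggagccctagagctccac
Cxcl10 (chr5:92348890-92349139, minus strand, difference 0.67): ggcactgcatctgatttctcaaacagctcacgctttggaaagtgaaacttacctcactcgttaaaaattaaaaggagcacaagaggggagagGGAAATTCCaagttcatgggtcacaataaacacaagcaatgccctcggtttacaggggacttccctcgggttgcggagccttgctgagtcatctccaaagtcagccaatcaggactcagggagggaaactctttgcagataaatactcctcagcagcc
In Cxcl1, Cxcl2 and Cxcl3 the match is GGAATTTCC, and it begins 70, 96 and 72 bases before the start in that order. In Cxcl10 it is GGAAATTCC and begins 158 bases before the start. A match was present in 0.81% of 32851 promoter windows of this length and in 7 of the 40 windows of the 38 members that had one. The motif was chosen after these promoters had been seen, so the members' share is no independent evidence. Besides these 4 genes, Ccl1 (difference 0.30), Ccl12 (-0.09) and Ccr3 (-0.205) had a match. A search for GAAANNGAA on both strands, a core of the interferon response element, found 8 members, Ccl1, Ccl3, Ccl19, Ccr2, Cxcl9, Cxcl10, Cxcl14 and Cxcr1, and 7.13% of all windows. TATAAA on either strand was present in the windows of 12 members and in 12.37% of all windows. No match of 1 motif overlapped a match of another in Cxcl1, Cxcl2, Cxcl3 or Cxcl10. These are matches of letters in a window and show neither binding nor a cause of the differences. Promoters of the following members were not used here: Ccl2, Ccl4, Ccl5, Ccl7, Ccl11, Ccl24, Ccl26, Ccr7, Ccr10, Cxcl5, Cxcl11, Cxcl16, Cxcl17 and Cxcr5.

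Of known inducers of these genes, Il1b, which encodes interleukin-1 beta, was at 8.10 in impaired and 6.48 in wildtype cells (3.08-fold brighter). Il17a was 1.99-fold brighter, while Tnf differed by -0.38. Rela, an NF-kB subunit, differed by -0.09, and Nfkbia, an inhibitor that NF-kB itself induces, by 0.19. Of the 8 genes measured on this list of inducers and NF-kB genes, Nfkbia included, 5 lay above 0 and 3 below. Il1b was the 1 past 2-fold.

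**Figure D2:**
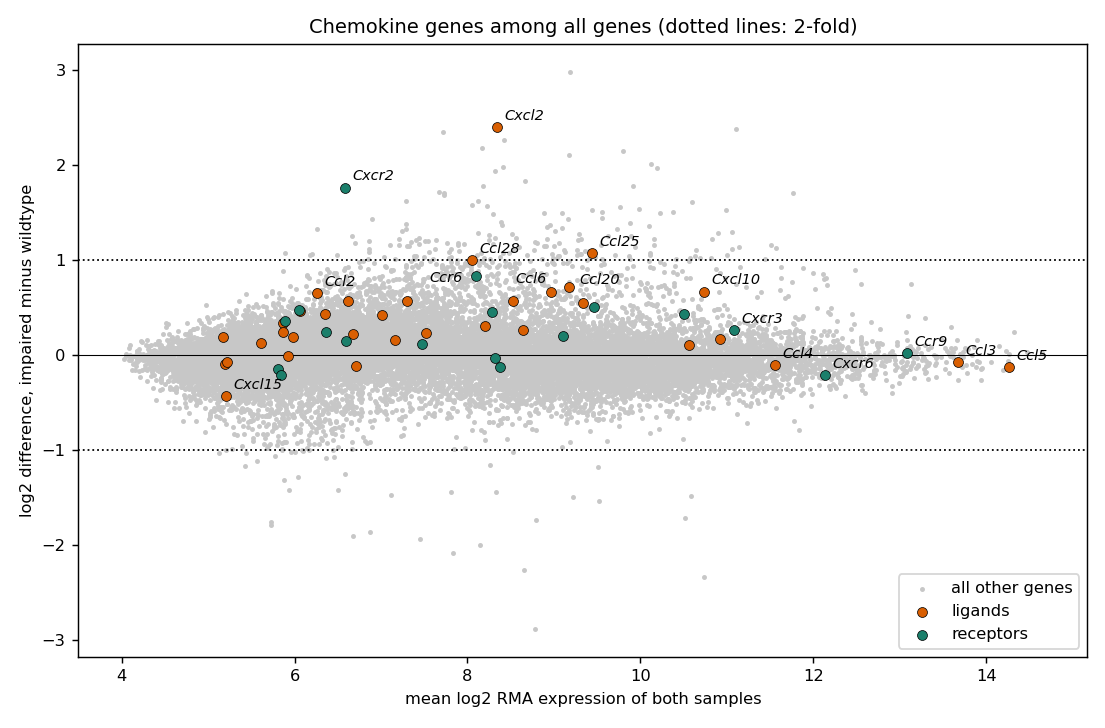
Log2 difference (impaired minus wildtype) against the mean log2 expression of both samples for all 19937 genes, with ligands and receptors coloured and the 9 members past 1.5-fold among those named. Cxcl2 at 2.40 and Cxcr2 at 1.76 lie at the upper edge of the genes of like brightness, and no member lies below the lower 2-fold line.

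The 5 ligands grouped as epithelial chemokines of the gut differed by between 0.465 and 1.07, with a median of 0.71. Cxcl14 and Cxcl17, which epithelia also make and which were grouped elsewhere, differed by 0.12 and -0.11. Ccl25, the ligand of CCR9 made by small intestinal enterocytes, was at 9.97 in impaired and 8.90 in wildtype cells (2.11-fold brighter). A dimmer second probe set of Ccl25 gave 7.24 in impaired and 7.35 in wildtype cells, a difference of -0.11, so the gene's 2 probe sets disagree. The mean of both probe sets differed by 0.48, which is short of 2-fold. Ccl28, a mucosal chemokine, was at 8.56 in impaired and 7.56 in wildtype cells, 1.997-fold brighter and just short of 2-fold. Ccl20, the ligand of CCR6, was at 9.53 in impaired and 8.82 in wildtype cells (1.64-fold brighter). Cx3cl1, fractalkine, a chemokine with a membrane-bound form, differed by 0.57. Cxcl16, which is also membrane-bound, differed by 0.465 at dim values of 6.29 in impaired and 5.83 in wildtype cells. The median of enterocyte markers in the same samples was 0.90, and the part of epithelial RNA in these values was not tested.

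The interferon-induced ligands of CXCR3 lay above 0 in 3 of 3 cases. Cxcl10 was at 11.07 in impaired and 10.40 in wildtype cells (1.59-fold brighter). Of 1444 genes of like brightness, 42 differed as much in either direction. Cxcl9 was at 11.01 in impaired and 10.83 in wildtype cells, and Cxcl11 at 8.77 in impaired and 8.51 in wildtype cells. Ifng, which induces all of them, was itself at 12.29 in impaired and 12.50 in wildtype cells.

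The chemokines typical of activated and cytotoxic T cells were nearly equal in the samples, with a median difference of -0.07 over 5 genes. Ccl5 (RANTES) was at 14.20 in impaired and 14.32 in wildtype cells. Ccl3 (MIP-1 alpha) was at 13.64 in impaired and 13.71 in wildtype cells, and Ccl4 (MIP-1 beta) at 11.51 in impaired and 11.61 in wildtype cells. Xcl1, lymphotactin, was at 10.61 in impaired and 10.51 in wildtype cells. Ccl1, a ligand of CCR8 made by activated T cells, had the highest difference of the group at 0.30. The CD8 and gamma-delta T cell markers differed in both directions. Cd8a was at -0.70, Trgv1 at -0.40 and Cd8b1 at -0.09, while Zbtb16 was at 0.54 and Sox13 at 0.24. The part of such cells in these values was not tested. At the brightness of Ccl3, 40 of 70 other genes differed at least as much, and 426 of 775 did at that of Ccl4. At that of Ccl5, 7 of 22 did. Bright genes leaned the same way, since 40.0% of all genes with a mean at or above the 75th percentile of probe sets were above 0. Their median was -0.05. Ccl5 lay close to the highest values of the arrays, 14.66 (impaired) and 14.63 (wildtype).

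Ligands that draw monocytes and eosinophils had a median of 0.23 over 9 genes, 6 above 0 and 3 below. Ccl6, made by myeloid cells of mice, was at 9.30 in impaired and 8.64 in wildtype cells (1.59-fold brighter). Ccl2 (MCP-1), a ligand of CCR2, was at 6.59 in impaired and 5.93 in wildtype cells (1.57-fold brighter), dim in both. Ccl11, eotaxin, was at 7.22 in impaired and 6.80 in wildtype cells. The remaining 6 ranged from -0.09 for Ccl12 to 0.33 for Ccl24, and Ccl9 was the 1 of them with a mean above the median of probe sets. Macrophage and monocyte markers had a median of 0.18, with Lyz2 highest at 1.78 and Cybb lowest at -0.55.

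The chemokines of lymphoid organs, dendritic cells and stroma had a median of 0.24, with 6 of 7 above 0 and 0 past 1.5-fold, Ccl19 counted among the 6. Ccl19, a ligand of CCR7, was at 9.61 in impaired and 9.06 in wildtype cells by its brightest probe set. Its 3 other probe sets differed by 0.27, 0.06 and -0.91, and the mean of all 4 by -0.01. Mice carry near-identical copies of Ccl19 and the probe sets disagree, so no direction can be given for this gene. Ccl17 and Ccl22, the ligands of CCR4, differed by 0.565 and 0.19 and were dim. Cxcl13, which draws B cells to follicles, was at 6.57 in impaired and 6.13 in wildtype cells. Cxcl12, the ligand of CXCR4, was at 5.98 in impaired and 5.74 in wildtype cells, below the median of probe sets in both. Stromal and endothelial markers had a median of 0.16 over 12 genes, with sums of 1737 in impaired and 1410 in wildtype cells, and 8 of them were dim.

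**Figure D3:**
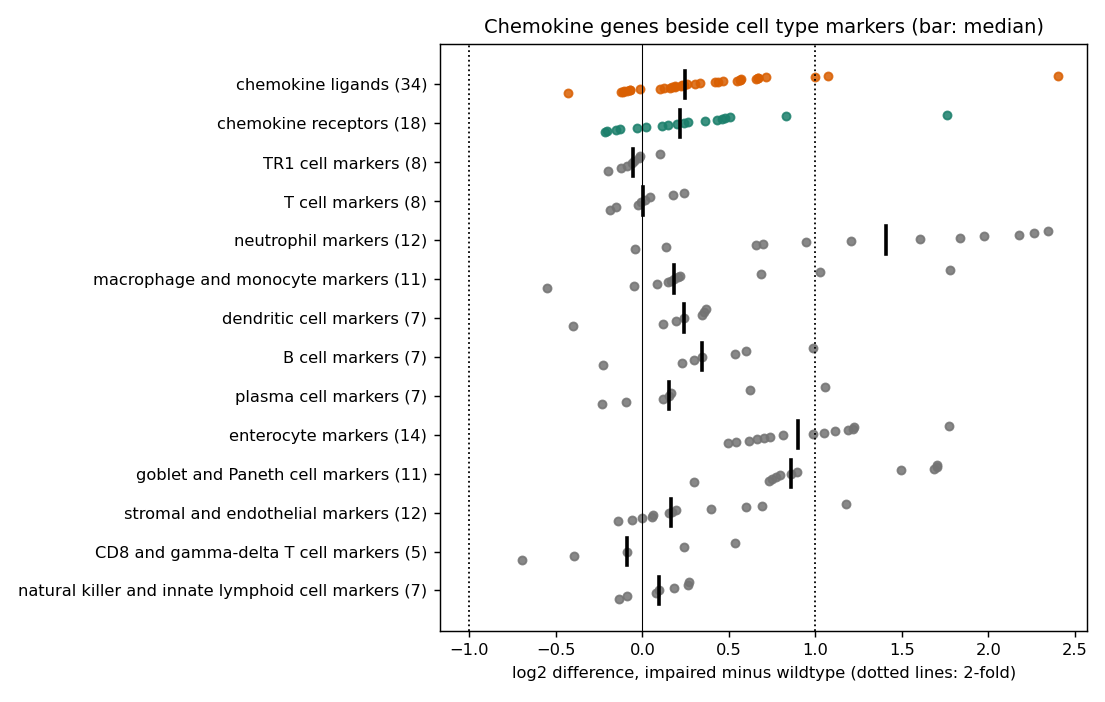
Log2 difference (impaired minus wildtype) of each chemokine ligand and receptor and of each marker gene of 12 cell types, with the number of genes in brackets and a bar at the median. The chemokine medians of 0.25 and 0.22 lie below those of the neutrophil (1.41), enterocyte (0.90) and goblet and Paneth cell (0.86) markers, and above those of the TR1 (-0.05) and T cell (0.005) markers.

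Among the receptors, Cxcr2 stood apart. It encodes the neutrophil receptor for CXCL1, CXCL2, CXCL3 and CXCL5, and was at 7.47 in impaired and 5.71 in wildtype cells, a difference of 1.76 or 3.39-fold. It ranked 16 among all genes. Of 4031 genes of like brightness, 2 were as far apart. The wildtype value lay below the median of probe sets, so the size is uncertain, and it was 1.31 once 32 was added to the linear values. Cxcr1, its neighbour in the genome, was at 6.67 in impaired and 6.52 in wildtype cells. Beside Cxcr2, the neutrophil genes S100a8 and S100a9 were at 9.56 and 9.26 in impaired cells and at 7.29 and 7.08 in wildtype cells. Ly6g differed by 0.70 and Csf3r, the receptor for the neutrophil growth factor G-CSF, by 0.66. Camp and Elane, of the same marker list, differed by 0.13 and -0.04, and like Csf3r they were dim.

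The receptors known from T cells had a median difference of 0.26, with 9 of 11 above 0. Ccr6, carried by IL-17-producing T cells and by B cells, was at 8.51 in impaired and 7.68 in wildtype cells (1.78-fold brighter). It was the 1 T cell receptor past 1.5-fold. Il17a was brighter by 0.99, and 6 of 7 B cell markers lay above 0, with sums of 1282 in impaired and 875 in wildtype cells, although 5 of the 7 were dim by their mean. The part of B cells in the Ccr6 value was not tested. Ccr8 (1.42-fold) and Ccr4 (1.35-fold), both known from TH2 and regulatory T cells, were at 9.72 and 10.72 in impaired cells and at 9.21 and 10.29 in wildtype cells. Ccr7, which guides T cells into lymph nodes, was at 8.51 in impaired and 8.06 in wildtype cells (1.37-fold). Cxcr3, the TH1 receptor for CXCL9, CXCL10 and CXCL11, was at 11.21 in impaired and 10.95 in wildtype cells (1.20-fold). Ccr2 differed by 0.20.

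The gut-homing receptor was nearly equal in both samples. Ccr9 was at 13.09 in impaired and 13.07 in wildtype cells, a difference of 0.02. Cxcr6, a receptor of tissue-resident T cells, was at 12.03 in impaired and 12.24 in wildtype cells, the lowest difference of any receptor at -0.21. Cxcr4, the receptor for CXCL12, was at 8.31 in impaired and 8.44 in wildtype cells. Cxcr5 and Ccr10 were dim, at 6.07 and 6.48 in impaired cells and at 5.71 and 6.24 in wildtype cells. Since the sort is not described, it is not known whether any receptor took part in their selection.

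The receptors of myeloid and other cells differed in both directions, with a median of 0.12 over 7 genes. After Cxcr2, Ccr1, a receptor of neutrophils, monocytes and activated T cells, was next at 6.29 in impaired and 5.81 in wildtype cells, dim in both. Cx3cr1, the fractalkine receptor of monocytes and macrophages, was at 7.53 in impaired and 7.42 in wildtype cells. Xcr1, a receptor of cross-presenting dendritic cells, was at 8.31 in impaired and 8.34 in wildtype cells. The 7 dendritic cell markers measured had a median of 0.24, with sums of 2241 in impaired and 1786 in wildtype cells, and 5 of them were dim. Ccr3, the eosinophil receptor, and Ccr1l1 were dim and differed by -0.205 and -0.15.

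Ligands were then paired with the receptors they are known to bind in the mouse, which gave 33 pairs of 17 receptors and 29 ligands with both genes measured. In 22 pairs both genes were brighter in the impaired sample, in 1 both were dimmer and in 10 they differed in sign. The 22 include Ccr7 with Ccl19, for which no direction can be given. Pairs share genes, so these counts are not independent. Above 0 were 26 of 34 ligands and 13 of 18 receptors, beside 51.5% of all genes. Many pairs with both genes brighter follow from these shares alone, so the 22 say little about partners. Both genes were at least 1.5-fold brighter in 2 pairs, Cxcr2 with Cxcl2 and Ccr6 with Ccl20. Some other pairs were nearly equal at smaller differences, as Cxcr3 (0.26) with Cxcl11 (0.26), Ccr2 (0.20) with Ccl7 (0.23) and Cxcr5 (0.36) with Cxcl13 (0.44). Of these genes Ccl7, Cxcr5 and Cxcl13 were dim. In others the 2 differences were unequal. By its brighter probe set Ccl25 was 1.07 higher while Ccr9 differed by 0.02, and Ccl28 was brighter by 0.998 while Ccr10 differed by 0.24. Ccr1, which was dim, differed by 0.48 while its ligands Ccl3 and Ccl5 differed by -0.07 and -0.12. Opposite signs also met in Cxcr6 (-0.21) with Cxcl16 (0.465) and in Cxcr4 (-0.13) with Cxcl12 (0.24). Which cells gave the ligand and which the receptor was not measured.

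**Figure D4:**
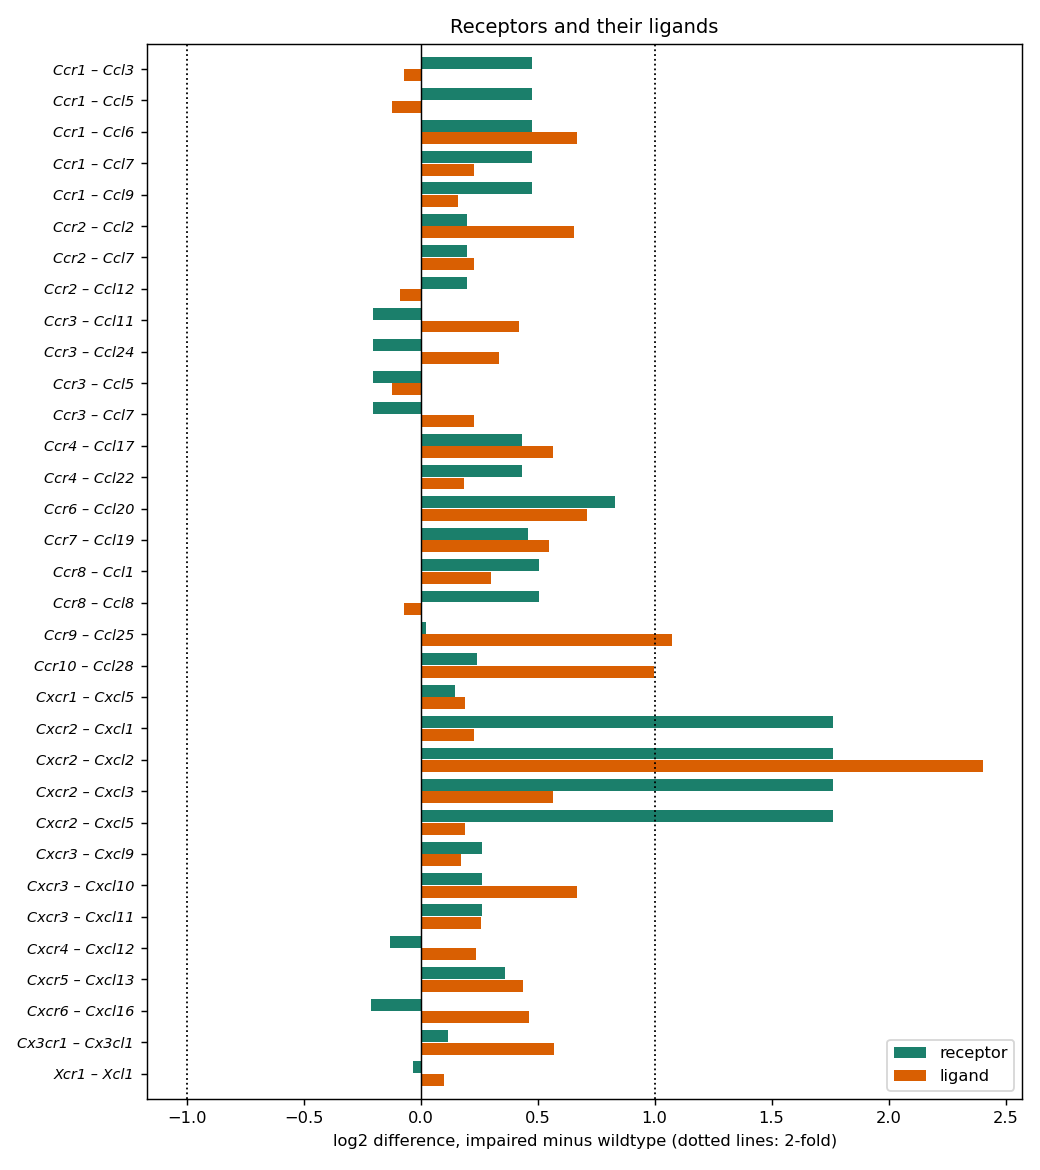
Log2 difference (impaired minus wildtype) of the receptor and the ligand of 33 pairs. Bars of Cxcr2 with Cxcl2 (1.76 and 2.40) and of Ccr6 with Ccl20 (0.83 and 0.71) are long for both genes, whereas Ccr9 with Ccl25 (0.02 and 1.07) is long for the ligand alone.

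Many chemokine genes lie side by side in the genome, and neighbours were alike in some places and unlike in others. In the run Cxcl5, Cxcl3, Cxcl15, Cxcl1 and Cxcl2 on chromosome 5, the differences were 0.19, 0.565, -0.43, 0.23 and 2.40. In the run Ccl5, Ccl9, Ccl6, Ccl3 and Ccl4 on chromosome 11, Ccl6 differed by 0.67 and the others by between -0.12 and 0.16. The 6 genes from Ccl2 to Ccl1 on the same chromosome ranged from -0.09 to 0.655. In the receptor run on chromosome 9, Ccr9, Cxcr6, Xcr1, Ccr1, Ccr1l1, Ccr3 and Ccr2, the highest was Ccr1 at 0.48 and the lowest Cxcr6 at -0.21. On chromosome 8, Cx3cl1 and Ccl17 stood side by side at 0.57 and 0.565, with Ccl22 at 0.19. Ccl12 and Ccl8 (-0.09 and -0.07) and Ccl3 and Ccl4 (-0.07 and -0.11) were also close.

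**Figure D5:**
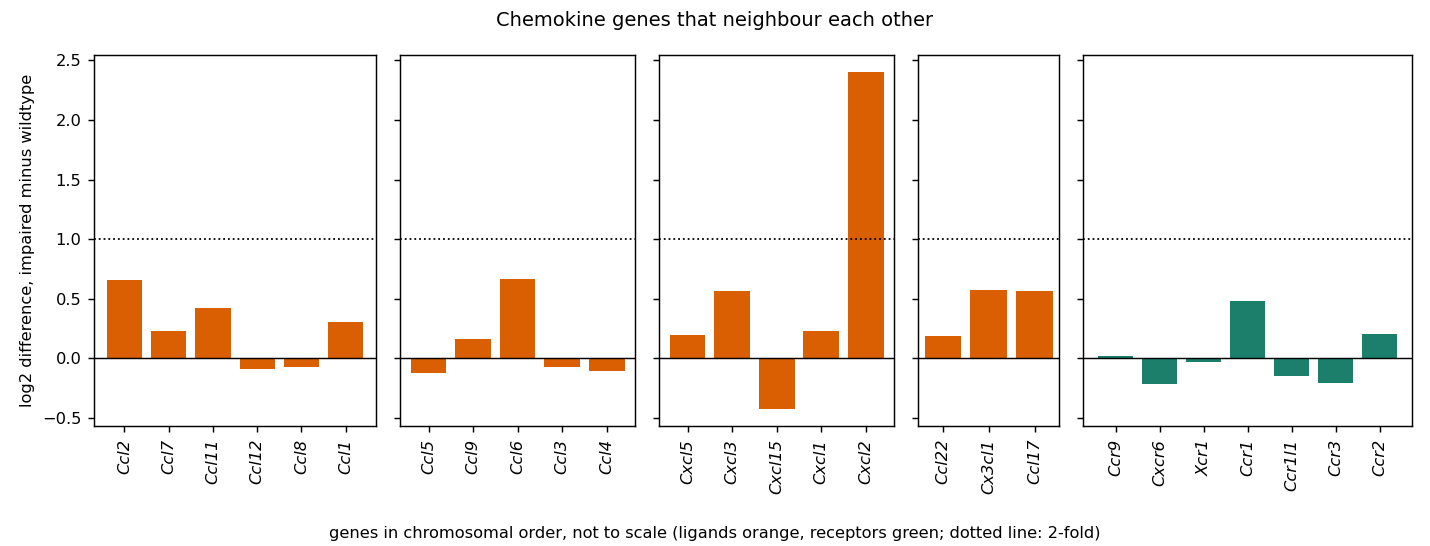
Log2 difference (impaired minus wildtype) of the members in each of the 5 runs of at least 3 neighbouring chemokine genes, in chromosomal order and not to scale. Cxcl2 at 2.40 stands beside Cxcl1 at 0.23 and Cxcl15 at -0.43.

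Of the genes listed as acting on chemokines or on and after their receptors, 0 were 2-fold apart, and Ccrl2, Plcb3 and Sdc4 were the ones past 1.5-fold. Among all genes 0.828% were at least 2-fold brighter, 0.191% at least 2-fold dimmer and 51.5% above 0. Of 6 genes listed as atypical receptors, 4 were above 0 and 2 below. The Ackr genes among them encode receptors that bind chemokines without signalling through G proteins. Ccrl2, which is induced in activated myeloid cells, was at 8.57 in impaired and 7.86 in wildtype cells (1.64-fold brighter), and the other 5 were dim. Of 14 G protein and RGS genes 8 were above 0, 6 below and 0 past 2-fold, with a median of 0.06. Gnai2, the main inhibitory G protein of lymphocytes, differed by -0.08, and Rgs1, which dampens chemokine receptor signals in gut T cells, was at 13.16 in impaired and 13.26 in wildtype cells. The 6 receptor kinases and arrestins measured had a median of 0.06 and 0 past 2-fold.

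Of 22 migration signalling genes 8 were above 0, 14 below and 0 past 2-fold, with a median of -0.03. Most of them were bright. Of all genes with a mean at or above the 75th percentile of probe sets, 40.0% were above 0, with a median of -0.05. Plcb3, a phospholipase, was the highest at 0.74, and Rap1a, a small GTPase that activates integrins, the lowest at -0.29. Dock2, which drives lymphocyte movement through Rac, differed by -0.04. Of the integrin chains, Itga4 and Itgb7, which form the gut-homing integrin, were both at -0.07, and Itgae, the CD103 chain, at -0.11. Itgb1 was at 0.33 and Itgal at 0.25, while Itgb2 was at -0.002. Of 7 enzymes and scaffolds that act on chemokines, Sdc4 was highest at 0.61 and Adam17, which sheds CX3CL1, lowest at -0.39. Dpp4, which trims chemokines, differed by 0.12.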

How the data were processed

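RNA of 2 samples was hybridised to 1 Affymetrix array each, labelled with biotin after oligo(dT) priming, per the labels' protocols. The deposited values are log2 expression made by the authors with affy and RMA, per the submitters' processing notes, whose versions, and the genome build, the sources used here do not give. The table holds 34760 probe sets, and the arrays' medians were 6.92 (impaired) and 6.89 (wildtype). Pearson's r between the arrays, across probe sets and as a description, was 0.988. Precision is limited by having 1 array a group.

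Probe sets were named through GEO's platform annotation. Of them 21640 had 1 gene symbol, 1321 several and 11799 none, and 21553 of the first were found in RefSeq's GRCm38.p6 gene table through their Entrez numbers, with 0 symbols altered. No filter on dim probe sets was applied to the members. Differences were described by a 2-fold rule and medians beside those of all genes, with no test. The members, role groups, pairs and lists were chosen with earlier results of these data known, and the role groups after the values had been seen. Any member could be named. Those past 1.5-fold and their partners are described one by one, and other genes come from the pathway and marker lists. Genes of like brightness are those whose mean lay within 0.5. Neighbours are members with at most 10 other protein-coding genes between them. Alternatives were loess and median centring, an offset of 32, averaging all probe sets per gene, filters on dim probe sets and a 1.5-fold rule. Scripts were tested on simulated data. The tools were statsmodels 0.14.6, pandas 2.3.3, numpy 2.4.6 and Python 3.11.15.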

Additional observations from a re-analysis of the deposited data

How the results depend on the processing

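The ligands' median difference ranged from 0.205 to 0.42 and the receptors' from 0.18 to 0.23 over the main setting and all 7 alternatives that recompute it. The count of ligands at least 2-fold brighter, 2 as reported, was 1 when all probe sets per gene were averaged, where Ccl25 differed by 0.48. It was also 1 with a filter at the 75th percentile of probe sets, which left 10 ligands without Cxcl2. The count was 3 with median centring, where Ccl28 differed by 1.01, and 7 by the 1.5-fold rule. Of receptors, 1 was 2-fold brighter as reported, 2 by the 1.5-fold rule and 0 with the filters on the mean at the median or the 75th percentile of probe sets, both of which leave out Cxcr2. The counts of dimmer ligands and receptors stayed at 0 throughout. The filters only remove members and the offset only shrinks differences, so neither could raise a count of 0. Under the centring alternatives 0 of 52 members took the other sign. The offset cannot change a sign. Averaging probe sets could alter only the 2 members with several probe sets, and 1 of them, Ccl19 (-0.01), took the other sign. The offset lowered the difference of Cxcl2 to 2.17 and of Cxcr2 to 1.31. No paired analysis was possible because each group has 1 array, and for the same reason no replicate could be left out. Without scanner files, the background correction and the normalization could not be varied.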
